A study of Homo sapiens with 6 samples.

Results

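The genes described here encode integrins, caveolins and proteins of focal adhesions, the sites where a cell grips the extracellular matrix. They were chosen as a list of 33 symbols (25 integrin subunits, CAV1, CAV2, PTK2, ILK, TLN1, VCL, PXN and ZYX), and 31 of the 33 could be measured among 18417 genes on the arrays. ITGA1 shares its probe set's annotation with PELO and CAV2 shares its own with LOC105375463, so neither is given a value. The list was selected on measured values of these arrays: CAV1 and ITGAV had differed between the siRNAs, and ITGB1 had been higher in every siRNA array. For the comparisons of siRNA with control and of siRNA 2 with siRNA 3, the values below are therefore a description without a test.

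The study silenced STEAP1, a transmembrane metalloreductase family member, in A673 and SK-N-MC, both established cell lines of Ewing tumor, a bone and soft tissue cancer driven by the EWSR1-FLI1 fusion. Each line gave 3 arrays: cells with STEAP1 siRNA 2, cells with STEAP1 siRNA 3 and cells with a control siRNA. All cells were exposed to siRNA at 5 nM for 48 h. The siRNA numbers are those in the array titles, and the same number was taken to mean the same reagent in both lines. The title of the A673 control array also carries a number. The labels do not say whether arrays of a line came from separate cultures, so errors measure only the spread between these arrays. The 3 arrays of a line had different siRNAs. An SD within a line therefore also holds differences between siRNA 2, siRNA 3 and control. The SE of a line difference also holds those between siRNA 2 and siRNA 3. Beyond the siRNA, the spread may be technical. Each line has a lone control array, so the spread of controls is not known, and the labels do not say whether both lines received the same control siRNA. STEAP1 was at 30.8% (siRNA 2) and 32.1% (siRNA 3) of its control array in A673, and at 12.7% and 18.7% in SK-N-MC. Ewing tumor markers, CD99, NKX2-2 and FLI1 among them, were measured for 7 of 8 genes and lay between 3.78 and 10.2 on all arrays, in log2 of the deposited intensity, the scale used throughout.

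Integrins are heterodimers of an alpha and a beta subunit that bind matrix proteins outside the cell. Inside, talin (TLN1) and kindlins bind the beta tail and switch the receptor on, vinculin (VCL) ties talin to actin, and focal adhesion kinase (PTK2), integrin-linked kinase (ILK), paxillin (PXN) and zyxin (ZYX) assemble on the plaque. Caveolin-1 (CAV1) forms the coat of caveolae, small pits of the plasma membrane, and takes part in integrin signalling and turnover. Anchorage, spreading and invasion of tumor cells depend on these proteins.

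Most of the listed integrins gave a dim signal in these cells. The arrays carry no detection calls, so 341 olfactory receptor genes, which are not thought to be expressed in tumor lines, served as a guide to background: their 95th percentile lay between 1.96 and 2.17 on the 6 arrays. Of 24 integrin subunits measured (16 alpha and 8 beta), 4 had a mean log2 of at least 4: ITGA5, ITGAV, ITGB1 and ITGB5. These subunits form the fibronectin receptor (alpha 5 beta 1) and vitronectin receptors (alpha v beta 5). The other 20 had means below 4 and ranged from 1.12 to 4.06 over all arrays. Of these, 6 were above the olfactory receptor percentile on all 6 arrays (ITGA2B, ITGA6, ITGA7, ITGAE, ITGB2 and ITGB4), and 7 were above it on none (ITGA8, ITGA10, ITGA11, ITGAL, ITGB3, ITGB6 and ITGB8). Subunits of leukocytes (ITGAL, ITGAM, ITGAX, ITGB2) belonged to this dim set, and 4 measured leukocyte markers lay between 1.01 and 3.03. CAV1, PTK2, ILK, TLN1, VCL, PXN and ZYX all had means of at least 4, which brought the genes with a clear signal to 11 of 31. Levels of different genes are not ranked, because each probe set binds with its own strength.

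**Figure D1:**
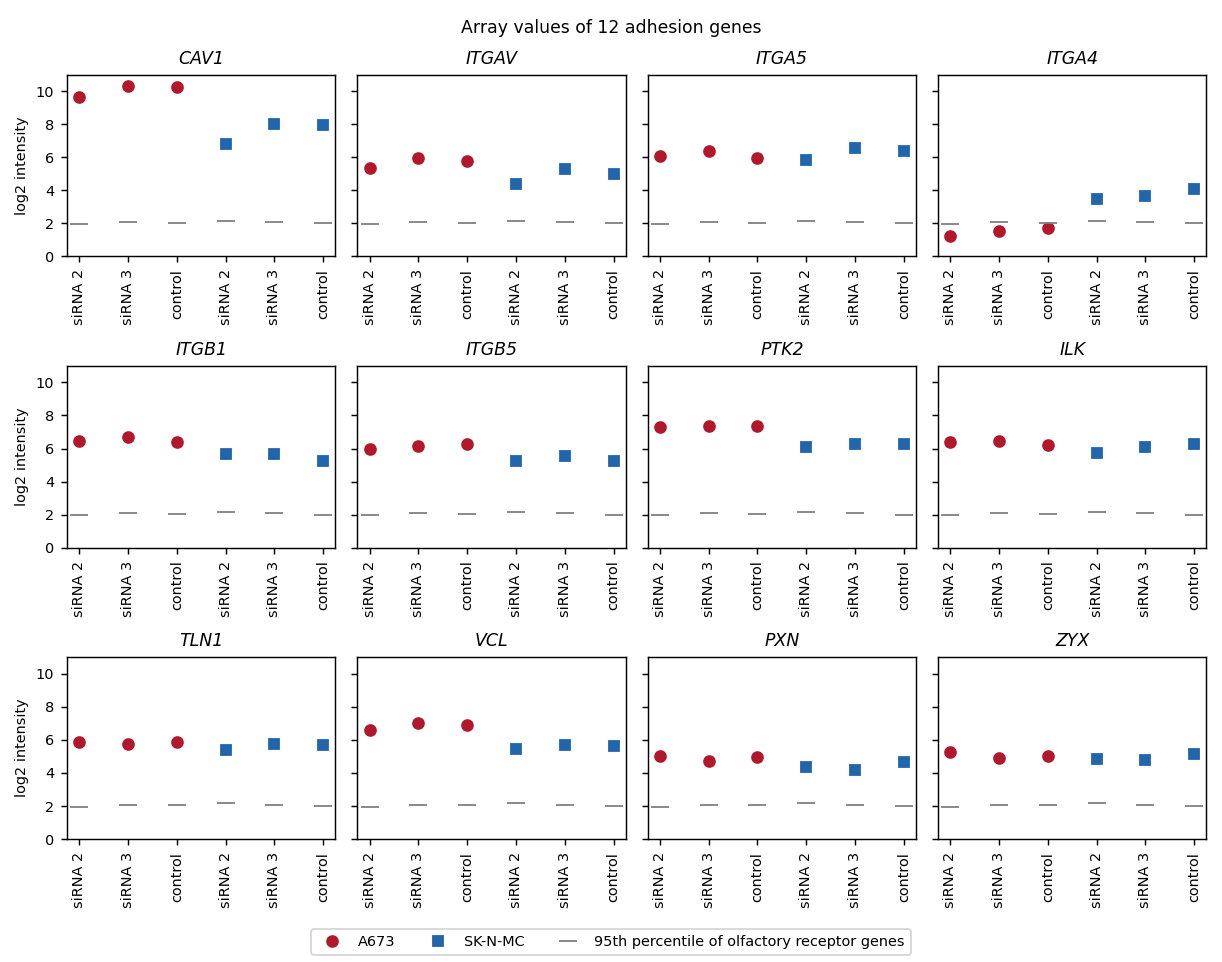
Log2 intensity of 12 adhesion genes on each array (x axis: siRNA 2, siRNA 3 and control; red circles A673, blue squares SK-N-MC). Each point is 1 array, and grey dashes mark the 95th percentile of olfactory receptor genes, 1.96 to 2.17. CAV1 lies between 9.66 and 10.3 in A673 and between 6.80 and 8.01 in SK-N-MC, while ITGA4 is below the grey dashes in A673 and above them in SK-N-MC.

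The rule for the list names no difference between the lines, so this comparison was tested, although the list and its companions were drawn up with results of these arrays known. Genes of the adhesion machinery were higher in A673 than in SK-N-MC more often than lower. CAV1 was 5.64-fold higher, VCL 2.39-fold, PTK2 2.18-fold and ITGB1 1.95-fold, and ITGA4 was lower, by an uncertain size since it was at background level in A673. In such bulk RNA, fewer cells that express a gene and less of its RNA per cell cannot be told apart. With limma over all 18417 genes (adjusted p under 0.05), 8 of the 31 were called higher in A673, beside 13.5% of all genes, and 2 were called lower, beside 11.4% of all genes. Among the 11 genes whose mean log2 was 4 or more, 7 were called higher and 0 lower, beside 22.5% and 16.4% of the 7413 genes with such a mean. The median log2 difference, A673 minus SK-N-MC, was 0.10 over the 31 genes and -0.02 over all genes. All 3 A673 arrays lay above all 3 SK-N-MC arrays for 11 of the 31 genes, beside 19.4% of all genes, and below them for 4, beside 18.5% of all genes.

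CAV1 differed between the lines by more than any other gene of the list that was above background in both. In A673 it lay at 9.66 with siRNA 2, 10.33 with siRNA 3 and 10.22 in the control array, and in SK-N-MC at 6.80, 8.01 and 7.92 in the same order. The lines did not overlap, and the lowest A673 array stood well above the highest SK-N-MC array. The means were 10.07 ± 0.36 in A673 and 7.58 ± 0.67 in SK-N-MC (SD, n = 3 each), with a log2 difference of 2.50 (SE 0.30, adjusted p = 5.20e-04). With separate siRNA terms in the fit, the SE was 0.14. The control arrays alone differed by 2.30, a comparison of 1 array with 1 that has no spread of its own. The start region of CAV1 is shown because it holds a pair of adjoining GGAA units, the motif bound in repeats by the EWSR1-FLI1 fusion, and that of ITGA4 because this gene was called lower. Both windows run from 250 bases before to 50 bases after the start of the gene, from RefSeq on GRCh38.p14, at chr7:116524759-116525058 (plus strand) for CAV1 and chr2:181457136-181457435 (plus strand) for ITGA4, with capitals on GGAAGGAA read on either strand.
CAV1: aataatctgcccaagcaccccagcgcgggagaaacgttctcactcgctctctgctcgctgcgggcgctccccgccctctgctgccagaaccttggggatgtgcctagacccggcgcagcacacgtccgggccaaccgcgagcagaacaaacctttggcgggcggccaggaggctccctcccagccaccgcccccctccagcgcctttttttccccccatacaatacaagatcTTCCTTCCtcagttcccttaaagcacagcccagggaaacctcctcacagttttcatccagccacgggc
ITGA4: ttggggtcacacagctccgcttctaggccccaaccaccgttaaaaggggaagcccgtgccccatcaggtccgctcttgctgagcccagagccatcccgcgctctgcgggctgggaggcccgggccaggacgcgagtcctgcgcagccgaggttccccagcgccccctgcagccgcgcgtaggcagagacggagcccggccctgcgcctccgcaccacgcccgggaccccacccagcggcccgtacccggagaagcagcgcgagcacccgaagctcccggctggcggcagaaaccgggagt
The CAV1 site occupies bases 233 to 240 of its window, counted from its 5′ end, in the orientation that reads TTCC. Windows were found for 24 of the 33 listed genes, 33 windows in all. CAV1 has 3 windows, of which the most upstream is printed, and ITGA4 has 1. GGAAGGAA stood in 3 of these 33 windows, belonging to CAV1 and ITGA10, and in 3.67% of all 35116 windows. ITGA10 was below the olfactory receptor percentile on every array and was not called between the lines (-0.15). Further motifs were searched on both strands, each counted by itself even where sites overlapped. The ETS motif CCGGAAGT was in 1 window (ITGB5; 4.14% of all windows), the TEAD motif GGAATG in 5 (14% of all windows), the AP-1 motif TGANTCA in 1 (ITGA5; 7.71% of all windows), the CArG box of serum response factor in 1 (ITGB6; 1.29% of all windows) and the GC box GGGCGG in 21 (45% of all windows). These matches describe letters in the windows, and no binding was measured.

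Of 8 beta subunits, ITGB1, ITGB5 and ITGB8 were called higher in A673, beside 13.5% of all genes. The other 5 were not called, among them ITGB7 at -0.19, with all A673 arrays below all SK-N-MC arrays. ITGB1, the partner of many alpha subunits, lay at 6.47 with siRNA 2, 6.69 with siRNA 3 and 6.37 in the control array of A673, and at 5.68, 5.69 and 5.26 in SK-N-MC. Every A673 array was above every SK-N-MC array (log2 difference 0.96, SE 0.11, adjusted p = 4.62e-04). ITGB5, which pairs with alpha v to bind vitronectin, lay at 5.97, 6.18 and 6.29 in A673 and at 5.22, 5.57 and 5.23 in SK-N-MC, again without overlap. Its difference was 0.80 (SE 0.14, adjusted p = 0.00411). ITGB8, another partner of alpha v, was called higher (0.46, SE 0.10, adjusted p = 0.0114), but it was below the olfactory receptor percentile on all 6 arrays, at 1.62 to 1.68 in A673 and 1.13 to 1.26 in SK-N-MC. Its call was lost without either control array (0.44, adjusted p = 0.0672).

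The alpha subunits went different ways. ITGAV, the alpha v chain, lay at 5.37 with siRNA 2, 5.96 with siRNA 3 and 5.77 in the control array of A673, and at 4.39, 5.27 and 5.00 in SK-N-MC. The gap between the lines was narrow, at 5.37 for the lowest A673 array (siRNA 2) and 5.27 for the highest SK-N-MC array (siRNA 3). The log2 difference was 0.81 (SE 0.24, adjusted p = 0.0383). Between arrays of the same kind, A673 minus SK-N-MC was 0.97 with siRNA 2, 0.69 with siRNA 3 and 0.77 in the controls. In a limma fit with separate siRNA terms the call was kept (SE 0.12, adjusted p = 0.00133). The call was lost without either control array (0.83, adjusted p = 0.134), without SK-N-MC siRNA 2 (0.55, adjusted p = 0.0899) and without A673 siRNA 3 (0.63, adjusted p = 0.142). ITGA5, which pairs with beta 1 as the main fibronectin receptor, lay at 6.05, 6.36 and 5.93 in A673 and at 5.85, 6.54 and 6.36 in SK-N-MC, and the lines overlapped (-0.13, SE 0.20, adjusted p = 0.715). ITGA4, which pairs with beta 1 or beta 7 to bind VCAM1 and fibronectin, lay at 1.25, 1.52 and 1.71 in A673 and at 3.48, 3.63 and 4.06 in SK-N-MC. It was below the olfactory receptor percentile on each A673 array and above it on each SK-N-MC array (log2 difference -2.23, SE 0.12, adjusted p = 8.58e-06), so the size of its difference is uncertain. ITGA2, a collagen receptor chain, was called lower (-0.47, SE 0.11, adjusted p = 0.0140) at 1.44 to 1.71 in A673 and 1.91 to 2.06 in SK-N-MC. It lost the call without A673 siRNA 2 (-0.44, adjusted p = 0.0595) and without A673 siRNA 3 (-0.46, adjusted p = 0.0552). EPCAM, an epithelial marker, was also called lower (-0.53, SE 0.14, adjusted p = 0.0258), at 1.33 to 1.59 in A673 and 1.68 to 2.26 in SK-N-MC. It was above the olfactory receptor percentile on 0 A673 arrays and 1 SK-N-MC array, so EPCAM itself was near background. KRT5 and KRT20 were not called, and the part of epithelial RNA in the lower values of ITGA2, ITGA4 and FERMT1 was not tested. The other 17 dim integrins were not called and had differences between -0.27 and 0.37.

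**Figure D2:**
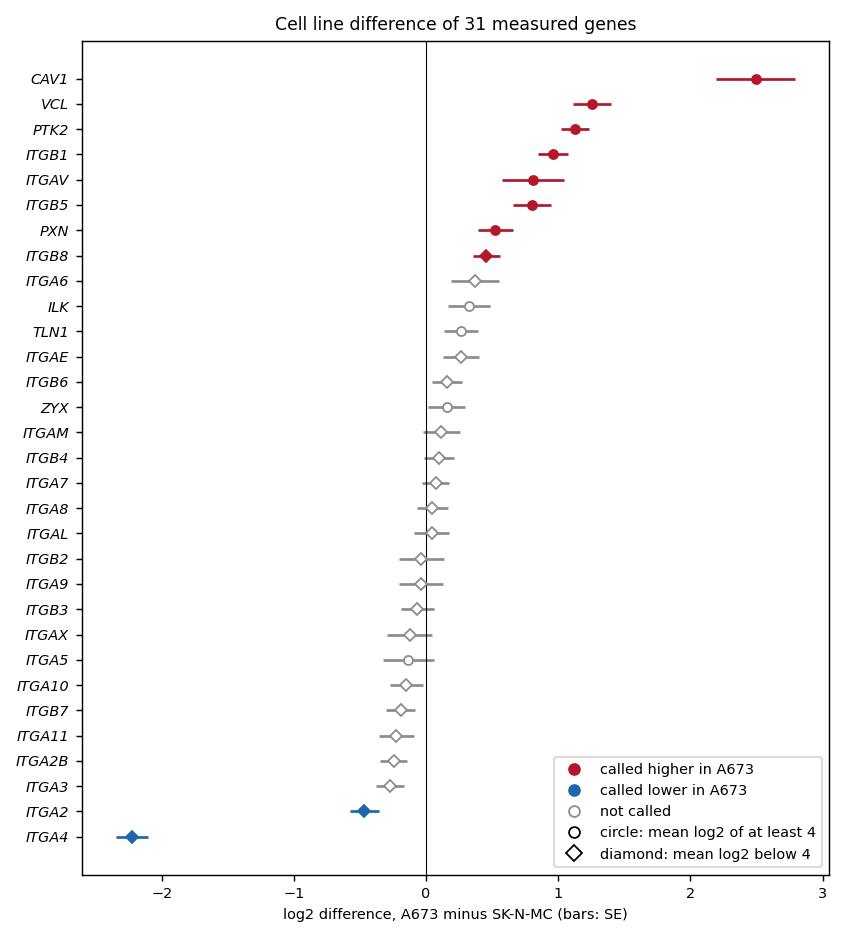
Log2 difference of A673 minus SK-N-MC for the 31 measured genes, with bars for the SE of the limma fit on 6 arrays. Red marks the 8 genes called higher in A673, blue the 2 called lower and open symbols the genes not called; diamonds are genes with a mean log2 below 4. CAV1 at 2.50 and ITGA4 at -2.23 stand at the ends.

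Of the 6 plaque genes on the list, VCL, PTK2 and PXN were called higher in A673, beside 13.5% of all genes. VCL lay at 6.59 with siRNA 2, 7.05 with siRNA 3 and 6.90 in the control array of A673, and at 5.46, 5.67 and 5.64 in SK-N-MC (log2 difference 1.26, SE 0.14, adjusted p = 3.84e-04). PTK2 lay at 7.28, 7.38 and 7.37 in A673 and at 6.11, 6.25 and 6.30 in SK-N-MC (1.13, SE 0.11, adjusted p = 1.45e-04). For both genes the lines were far apart beside the spread within a line, which was 0.06 in A673 and 0.10 in SK-N-MC for PTK2 (SD, n = 3 each). PXN lay at 5.05, 4.70 and 4.99 in A673 and at 4.34, 4.17 and 4.65 in SK-N-MC, with little distance between the lowest A673 array and the SK-N-MC control array (0.52, SE 0.13, adjusted p = 0.0221). Its second, dimmer probe set gave a difference of the line means of 0.27, and the call was lost without SK-N-MC siRNA 3 (0.45, adjusted p = 0.0782) and without A673 siRNA 2 (0.40, adjusted p = 0.0801).

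The remaining plaque genes were not called. TLN1 lay at 5.90, 5.78 and 5.89 in A673 and at 5.36, 5.73 and 5.67 in SK-N-MC, with all A673 arrays above all SK-N-MC arrays by a small margin (0.27, SE 0.13, adjusted p = 0.190). ILK lay at 6.40, 6.47 and 6.23 in A673 and at 5.74, 6.10 and 6.30 in SK-N-MC, where the control array exceeded that of A673 (0.32, SE 0.16, adjusted p = 0.197). ZYX, a LIM domain protein of mature adhesions, lay at 5.29, 4.90 and 5.04 in A673 and at 4.82, 4.81 and 5.12 in SK-N-MC, and the lines overlapped (0.16, SE 0.14, adjusted p = 0.514).

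Partners of these proteins, drawn up as lists of their own, were read in the same fit. Of 12 measured integrin activators and partners of ILK, 6 were called higher in A673 and 2 lower, beside 13.5% and 11.4% of all genes, with a median difference of 0.50 beside -0.02 over all genes. The kindlins, which bind beta tails beside talin, differed in both directions. FERMT3, the kindlin known from blood cells, lay at 6.41, 5.73 and 6.09 in A673 and at 2.94, 3.17 and 2.95 in SK-N-MC, 8.30-fold higher (SE 0.18 on the log2 scale, adjusted p = 1.18e-05). FERMT1, the kindlin known from epithelia, lay at 1.65, 1.60 and 1.94 in A673 and at 4.45, 4.66 and 4.57 in SK-N-MC (log2 difference -2.83, SE 0.12, adjusted p = 2.42e-06). It was below the olfactory receptor percentile on all A673 arrays, so the size of its difference is uncertain. FERMT2, the widely expressed kindlin, was 2.14-fold higher (adjusted p = 0.00143), at 5.69, 5.85 and 5.85 in A673 and at 4.78, 4.28 and 5.03 in SK-N-MC. The control arrays alone differed by 0.82, a comparison without a spread of its own. The 4 measured leukocyte markers lay between 1.01 and 2.96 in A673 and between 1.15 and 3.03 in SK-N-MC, with SPI1 above the olfactory receptor percentile on all 6 arrays and PTPRC on none. Of 3 platelet markers, GP9 was above it on all 6 arrays, at 2.11 to 2.34 in A673 and 2.21 to 2.61 in SK-N-MC. None of these markers was called between the lines, and the part of blood cell RNA in the FERMT3 difference was not tested. RSU1 and PARVA, which join the ILK complex, were 3.06-fold and 3.11-fold higher in A673 (adjusted p = 2.22e-05 and 2.81e-04).

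Of 31 measured plaque adaptors and kinases, 11 were called higher and 4 lower, beside the same 13.5% and 11.4%, with a median of 0.15. The 4 with the smallest p were CSRP1, an actin-associated LIM protein (5.08, SE 0.15), FYN, a Src family kinase (-2.61, SE 0.19), PDLIM5 (1.28, SE 0.12) and LPP, a relative of zyxin (1.43, SE 0.13). Their adjusted p-values were at most 1.27e-04. Of 28 integrin ligands other than collagens, 8 were called higher and 5 lower, beside the same 13.5% and 11.4%, with a median of 0.03. The ligand of alpha 5 beta 1, fibronectin (FN1), was 7.58-fold higher in A673 (adjusted p = 1.09e-04), at 9.50, 10.05 and 9.85 against 6.17, 7.03 and 7.42 in SK-N-MC. TGFBI was 14.1-fold and LAMC1 2.07-fold higher (adjusted p at most 2.26e-04). The SK-N-MC arrays lay at 2.45 to 2.78 for TGFBI, not far above the olfactory receptor percentile, so the size of its difference is uncertain. FBN1, of the fibrillin microfibrils, differed by 2.68 (SE 0.12, adjusted p = 3.51e-06), but it was below the olfactory receptor percentile on all SK-N-MC arrays, so the size is uncertain. Among the 5 lower ligands, ICAM1, a ligand of leukocyte integrins named after its value was seen, was 3.02-fold lower (adjusted p = 0.00108), at 2.37, 2.56 and 2.05 in A673 and 3.47, 4.02 and 4.29 in SK-N-MC. Of 8 caveola coat genes, PACSIN3 (0.67, SE 0.14, adjusted p = 0.00997) and CAVIN3 (0.38, SE 0.12, adjusted p = 0.0450) were called higher and 0 lower. The shares of all genes were the same 13.5% and 11.4%, and the median of the 8 was 0.17. PACSIN3 lost its call without either control array (0.68, adjusted p = 0.0546), and CAVIN3 kept its call in 4 of 14 alternatives. CAVIN1, which builds the caveolar coat together with CAV1, differed by 0.37 (SE 0.15, adjusted p = 0.125).

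**Figure D3:**
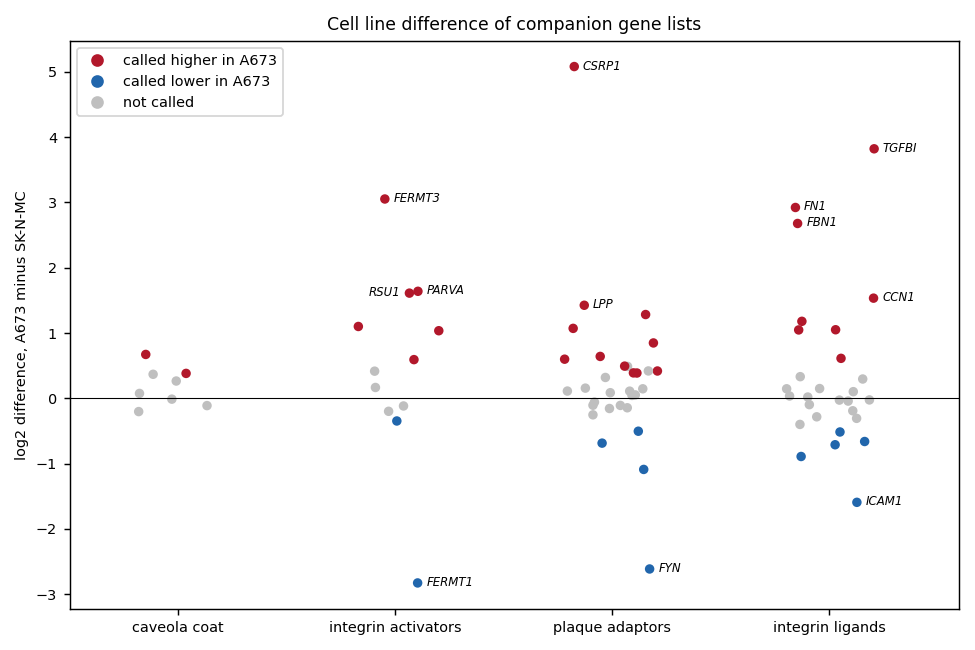
Log2 difference of A673 minus SK-N-MC for each measured gene of 4 companion lists; each point is 1 gene, spread sideways at random within its list, red called higher in A673, blue called lower and grey not called. Genes with a difference of at least 1.3 either way are named; CSRP1 is at 5.08 and FERMT1 at -2.83.

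With the siRNAs against STEAP1, CAV1 and ITGAV were lower with siRNA 2 than with siRNA 3 in both lines. Across the lines the log2 difference of siRNA 2 minus siRNA 3 was -0.94 for CAV1 (SE 0.17) and -0.74 for ITGAV (SE 0.14). These are among the values that led to the list. For CAV1 the difference was -0.67 in A673 and -1.20 in SK-N-MC, and for ITGAV it was -0.59 and -0.88. Against the control array, CAV1 stood at 68.2% with siRNA 2 and 109% with siRNA 3 in A673, and at 46.2% and 106% in SK-N-MC. ITGAV stood at 75.6% and 114% in A673, and at 65.9% and 121% in SK-N-MC. For both genes siRNA 2 thus lay below the control array and siRNA 3 a little above it, in each line.

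Other genes of the list showed the same order of the siRNAs with smaller distances. Of the 11 genes whose mean log2 was 4 or more, 8 were lower with siRNA 2 than with siRNA 3 in both lines (CAV1, ITGAV, ITGA5, ITGB1, ITGB5, PTK2, ILK and VCL), beside 31% of the 7413 genes with such a mean. PXN and ZYX had the opposite order in both lines, beside 23.6% of those genes, and TLN1 differed between lines. Over all 31 genes, 9 were lower and 9 higher with siRNA 2 in both lines, beside 26.3% and 24.6% of all genes, with a median of 0.01. ITGA5 differed by -0.50 (SE 0.17), at -0.31 in A673 and -0.68 in SK-N-MC, and VCL by -0.34 (SE 0.14), at -0.46 and -0.22. ITGB5 (-0.28, SE 0.16), ILK (-0.22, SE 0.19), PTK2 (-0.12, SE 0.13) and ITGB1 (-0.11, SE 0.14) differed by less. ITGB1 was nearly level between the siRNAs in SK-N-MC, at 5.68 and 5.69. Since this contrast chose CAV1 and ITGAV, nothing is read from these counts. Over all genes limma called 0 between the siRNAs (0% of 18417), with 1229 at an unadjusted p under 0.05.

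**Figure D4:**
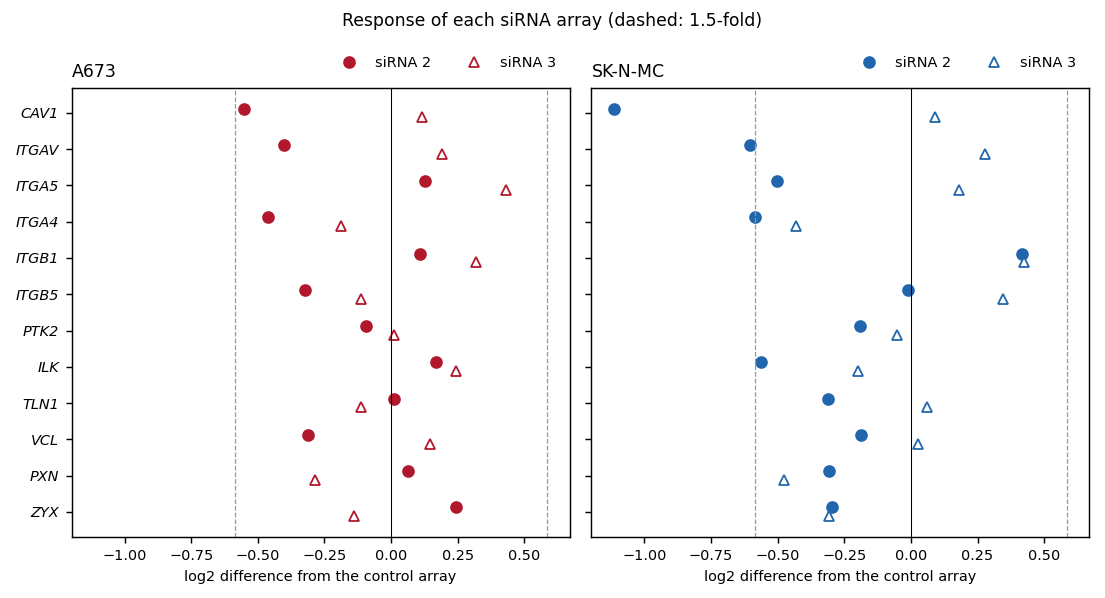
Log2 difference of each siRNA array from the control array of its line, for 12 adhesion genes (left A673, right SK-N-MC; filled circles siRNA 2, open triangles siRNA 3; dashed lines at 1.5-fold). CAV1 and ITGAV lie left of 0 with siRNA 2 and right of it with siRNA 3 in both panels, and ITGB1 lies right of 0 with both siRNAs.

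With both siRNAs pooled, genes that differed from the control array in the same direction on all 4 siRNA arrays were counted. Since this direction was known for ITGB1 when the list was made, nothing is read from the counts. ITGB1 was higher than the control array in all 4 siRNA arrays, by 0.11 and 0.32 in A673 and by 0.42 and 0.42 in SK-N-MC with siRNA 2 and siRNA 3. Its mean log2 difference was 0.32 (SE 0.12), at 0.21 without the SK-N-MC control array and 0.42 without the A673 control array. This value too was known when the list was drawn up. ITGB7 and ITGB8 were also higher in all 4 siRNA arrays (3 of 31 genes, beside 10.6% of all genes). ITGA3, ITGA4 and ITGB2 were lower in all 4 (3 of 31, beside 11.2% of all genes), and of these ITGA4 differed by -0.42 (SE 0.13), at -0.46 and -0.19 in A673 and -0.58 and -0.43 in SK-N-MC. All of these except ITGB1 had a mean log2 below 4. Over all genes limma called 0 (0% of 18417), with 852 at an unadjusted p under 0.05, and 1 gene with a trend in the prior and robust moderation.

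Past 1.5-fold from the control array, no gene of the list was lower or higher in either A673 siRNA array, beside 1.43% lower and 1.12% higher of all genes with siRNA 2 and 1.54% lower and 1.02% higher with siRNA 3. In SK-N-MC, CAV1 and ITGAV were at least 1.5-fold lower with siRNA 2 (2 of 31, beside 3.81% of all genes) and ITGB2 with siRNA 3 (1 of 31, beside 2.54% of all genes), and none was as much higher, beside 2.23% and 1.23% of all genes. ITGA4 with siRNA 2 in SK-N-MC fell just short of that limit, at -0.58. PXN was lower in 3 of 4 siRNA arrays, by up to -0.48 in SK-N-MC with siRNA 3, and PTK2 stayed within 0.19 of its control array in all 4. Whether the lines responded differently (siRNA minus control in A673, less the same in SK-N-MC) was tested in a fit of the 4 group means. limma called 0 of the 31 genes and 0 of all genes (0% of 18417), with 1 of the 31 (ITGAX, -0.71) and 711 of all genes at an unadjusted p under 0.05. In simulated arrays with the same spread for every gene, this fit recovered 28% of planted 2-fold changes and 98% of planted 4-fold changes. The lack of calls therefore does not show that the lines responded alike.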

How the data were processed

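Total RNA (200 ng) of cells taken at 80% confluency was measured on 6 Affymetrix arrays. The submitters' processing notes name Expression Console 1.1 and RMA as the authors' source of the deposited intensities. The values are on a linear scale. The step back to that scale and the genome build are not given in the sources used here. RMA shrinks differences of dim probe sets. The table holds 33297 probe sets, of which 19460 carry 1 gene symbol in the platform annotation, 1754 several and 12083 none used here. Current names came from a RefSeq table (GRCh38.p14), in which 19429 were found. The brightest probe set by mean stood for a gene, leaving 18417.

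Log2 of the deposited intensities was taken, and these values were fitted with limma 3.58.1 in R 4.3.3 (lmFit, eBayes, two-sided, Benjamini-Hochberg over all genes): cell line and silencing terms, separate siRNA terms, or 4 group means. The fits were tested on simulated data with known changes. No depth applies to arrays, and their number limits precision. The genes and lists were chosen with earlier results of these data known. All listed genes are accounted for; values per array are given for CAV1, ITGAV, ITGB1, the plaque genes and called genes that differed by at least 1, and ITGA5, ITGB5, FERMT2, ICAM1 and the per-array values of FN1 were added after their values were seen. CAV2, which the naming rule also held, could not be given. Companion lists name at most 4 genes of smallest p. Alternatives were median centring, a second quantile normalization, a floor, averaged probe sets, a filter on dim genes, moderation with a trend, blocking, subsets and single arrays left out. Motifs were searched in RefSeq windows.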

Additional observations from a re-analysis of the deposited data

Results flagged for a closer look

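For 5 of the 31 genes, both siRNA arrays of A673 moved one way from the control array and both of SK-N-MC the other way, as did 20% of all genes. The difference of the responses, A673 minus SK-N-MC, was 0.59 for ILK (SE 0.28), the plaque scaffold, which was higher in A673 by 0.17 and 0.24 and lower in SK-N-MC by -0.56 and -0.20 with siRNA 2 and siRNA 3. It was -0.50 for ITGA11, -0.49 for ITGAM, -0.71 for ITGAX and -0.19 for ITGB4, whose mean log2 values were below 4. The direct test with limma called none of the 5 (adjusted p = 0.9998 for each), and ITGAX alone had an unadjusted p under 0.05 (0.0395). The 2 siRNA arrays of a line share a control array, so they are not independent of each other.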

How the results depend on the processing

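The counts of 8 genes higher and 2 lower in A673 kept these values under median centring, a second quantile normalization, averaged probe sets and moderation with a trend, and with the siRNA number as a replicate block (also 8 and 2). The siRNA arrays alone gave 6 higher and 2 lower. The control arrays alone, 1 per line, have no spread of their own. The fit of group means judged them by the spread between siRNA arrays, so their counts are not given. A floor at a log2 of 4 gave 2 and 0; many genes then have no spread, which changes the pooled spread, and CAV1 lost its call with the same difference of 2.50 (adjusted p = 0.112). Testing only genes whose mean log2 was 4 or more gave 7 higher and 0 lower, since ITGA4, ITGA2 and ITGB8 are not tested there. With single arrays left out, the counts ranged from 6 to 8 higher and from 1 to 2 lower. ITGB1 and PTK2 kept their calls in all 15 alternatives, VCL and ITGB5 in all but the floor. These alternatives include the control arrays alone, whose calls rest on the spread between siRNA arrays. They are also not all distinct. Leaving out either control array gives the same fit of the line difference as the siRNA arrays alone. Averaging probe sets changed the values of PXN alone, the only measured gene of the list with a second probe set. Among genes not called, the sign of ITGA5 turned in the siRNA arrays alone (0.0133) and ranged from -0.37 to 0.0196 with single arrays left out, and those of ILK (-0.0673) and ZYX (-0.0812) turned in the control arrays alone; the cause was not tested. The siRNA 2 minus siRNA 3 difference of CAV1 ranged from -1.21 to -0.66 with single arrays left out and that of ITGAV from -0.86 to -0.62, while ITGB1 with silencing ranged from 0.21 to 0.42. The labels do not say that a shared siRNA number marks a shared culture or day. Deviations of same-numbered arrays correlated between the lines at 0.0663 over all genes and at 0.193 over the 7413 genes whose mean log2 was 4 or more. No gene of the list was called in the difference of the responses under any of its 6 alternatives.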
